A study of Mus musculus with 39 samples.

Results

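The cytosolic ribosomal protein genes were followed in mucosa scraped from the proximal small intestine, without the first 2 cm of duodenum, in mice given 3 diets that differed in their sugar. Members were taken by symbol, as genes named Rpl or Rps with a number together with Rplp0, Rplp1, Rplp2 and Rpsa, without -ps pseudogenes, predicted Gm genes and Rps6k kinases. Of 56980 genes in the count files 93 met this rule. They comprised 31 genes of the 40S subunit, 46 of the 60S subunit, 8 paralogues, 7 retrotransposed or like-named copies and Rps19bp1, which binds Rps19 and is not a ribosomal protein. The rule leaves out some other genes that encode ribosomal proteins, among them Fau and Rack1, whose values are given apart.

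The 39 mice were female C57BL/6JRccHsd animals, weaned at day 21, fed for 3 weeks and sacrificed in the fed state at day 42. Glucose supplied 32 en% (percent of energy) in the glucose diet. Galactose and glucose supplied 16 en% each in the galactose diet, and in the third diet lactose supplied the 32 en%. Fat and protein at 20 en% each, starch at 32 en% and fructose at 3 en% were common to all groups, and the labels give no genetic change. There were 13 animals per diet with 1 library from each, so p-values measure the spread between mice, and the galactose and lactose comparisons share the glucose mice as control.

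The cytosolic ribosome has a small 40S subunit, which reads the mRNA, and a large 60S subunit, which joins the amino acids. Most of their proteins are needed in equal numbers. Most of their mRNAs start with a run of pyrimidines, the terminal oligopyrimidine (TOP) motif, through which mTOR signalling and Larp1 control their translation. In the small intestine ribosome production is known to be high in the dividing cells of the crypt and lower in the differentiated cells of the villus.

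The start of these mRNAs is shown first, because the TOP motif is what the family is known to share. RefSeq promoters (GRCm38.p6) matched 57 of the 77 members of the 40S and 60S subunits, with 67 annotated starts. The windows below run from 10 bases before to 20 bases from the annotated start, and capitals mark, within the window, the longest run of C and T that touches the 10 bases on either side of the start. Runs that lie wholly farther downstream, such as the one at the end of the Rpl11 window, were not counted. The first 4 hold a run of at least 8, and the last 3 do not.
Rpl18: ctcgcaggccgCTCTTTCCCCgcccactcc
Rpl38: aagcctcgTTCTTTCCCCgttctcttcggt
Rps27: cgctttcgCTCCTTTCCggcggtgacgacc
Rps6: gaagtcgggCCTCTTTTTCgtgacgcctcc
Rpl11: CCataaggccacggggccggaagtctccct
Rpl10: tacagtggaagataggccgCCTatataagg
Rpl7l1: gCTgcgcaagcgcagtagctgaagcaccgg
On the plus strand, the window of Rpl18 lies at chr7:45718061-45718090, that of Rpl38 at chr11:114668570-114668599 and that of Rpl10 at chrX:74270806-74270835. On the minus strand, Rps27 lies at chr3:90213629-90213658, Rps6 at chr4:86857348-86857377, Rpl11 at chr4:136053374-136053403 and Rpl7l1 at chr17:46782637-46782666.

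A run of at least 8 C or T that touched the 10 bases on either side of the start was found in 41.8% of the 67 member starts, in 12.0% of 75 starts of mitochondrial ribosomal protein genes and in 14.0% of 32851 starts of all genes. Motifs were searched on both strands from 250 bases before to 50 after the start. The ETS core CCGGAAG was present in 37.3% of member promoters, 34.7% of mitochondrial ribosomal protein promoters and 8.9% of all promoters. The SP1 box GGGCGG was present in 61.2% of member promoters, 52.0% of mitochondrial ribosomal protein promoters and 35.7% of all promoters. In the same order, the YY1 motif AAGATGGC was present in 10.4%, 16.0% and 2.7%, and the TATA box TATAAA in 9.0%, 6.7% and 13.6%. The ETS, SP1 and YY1 shares above those of all promoters were thus not particular to the members. A match is a description of the letters, and annotated starts can differ from those used in the intestine.

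Members took 1.14% ± 0.253 (SD, n = 39) of the counts assigned to genes. The lowest share was 0.656% in galactose mouse 3 and the highest 1.79% in glucose mouse 1, which is 2.73-fold higher. By diet, the share was 1.26% ± 0.256 with glucose, 1.07% ± 0.272 with galactose and 1.09% ± 0.195 with lactose (SD, n = 13 each), and the ranges of the diets overlapped. The 40S genes took 0.456% and the 60S genes 0.659% of counts on average. The mean log2 level of the 40S genes minus that of the 60S genes stayed between -0.13 and 0.00 over the 39 mice, so both subunits were high in the same mice and low in the same mice.

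**Figure D1:**
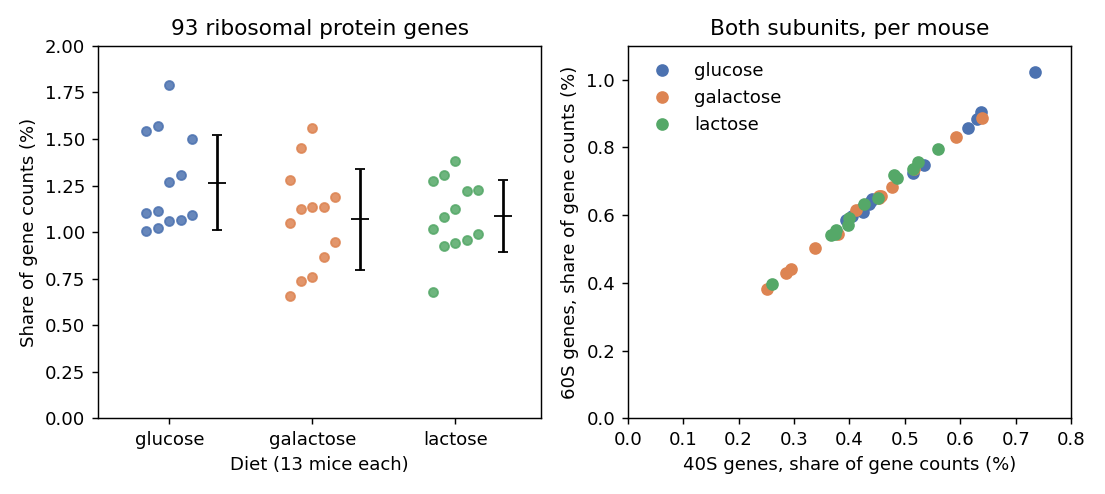
Share of assigned counts (%) taken by the 93 genes in each mouse, with the mean and SD of each diet beside the points (left), and the 40S share against the 60S share in each mouse (right). Galactose mouse 3 is lowest at 0.656% and glucose mouse 1 highest at 1.79%, and the 3 diets overlap.

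Levels were expressed as CPM, the normalised read count scaled to library size. Per kilobase of mRNA, the levels of the members spanned a wide range. In glucose mice the highest were Rps2 at 449, Rpl10 at 437, Rplp1 at 436, Rps14 at 410 and Rpl7a at 404 CPM per kilobase. Among tested members with an annotated length the lowest were Rps10 at 1.82, Rpl13a at 2.48, Rps27rt at 8.32, Rps19bp1 at 13.9 and Rps20 at 37.2 CPM per kilobase. The value of Rps20 rests on an annotated length of 3706 bases. Before division by length Rps20 was at 138 CPM, so its low rank is not a sign of few reads. The tested members Rps3a3, Rpl6l, Rps3a2, Rpl37rt and Rps4l had no length, and the first 4 of these lay between 0.607 and 4.55 CPM in glucose mice. Rpl24, a protein of the 60S subunit present in every ribosome, had 52 counts over all 39 libraries. In the GENCODE M21 annotation 71.5% of the Rpl24 mRNA, 91.6% of Rps10 and 59.3% of Rpl13a lie under exons of another gene on either strand. Rpl35 has 68.3% under such exons and was at 119 CPM per kilobase, and the part of overlapping annotation in the low counts was not tested. The low values of Rpl24, Rps10 and Rpl13a are therefore uncertain as measures of their mRNAs.

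Of the 93 members 86 passed the filter on low counts and were tested. The other 7 were Rpl24, Rpl36al and the tissue-restricted or copy genes Rpl10l, Rpl3l, Rpl39l, Rpl32l and Rps12l1. Rpl10l, known from testis, had 0 counts in every library, and Rpl3l, known from muscle, averaged 0.0149 CPM in glucose mice.

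Library depth lay between 19685385 and 21350610 counts assigned to genes. Summed markers of enterocytes, the absorptive cells, ranged from 61645 to 100368 CPM, so enterocyte transcripts were abundant in every library. Galactose mouse 4 stood apart with 17274 CPM of the 4 measured of 10 pancreatic acinar markers, against at most 181 CPM in any glucose or lactose mouse. The numbers in the sample titles form 2 runs, 1 to 18 and 49 to 69, which the labels do not explain and which each hold all 3 diets. Counts of ribosomal protein pseudogenes per 100 member counts also fell into 3 separate stretches of title numbers that did not follow diet. Results are given for each run, without galactose mouse 4 and with the stretch as a covariate.

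With galactose, transcripts of 9 ribosomal proteins of both subunits were lower than with glucose. Of 86 tested members 9 were called lower and 0 higher, where 2.87% of all 14658 tested genes were called lower and 1.21% higher. All 86 log2 differences were below 0, with a median of -0.28 against -0.003 over all tested genes. At an unadjusted p under 0.05 there were 71 of the 86 members, beside 3018 of all 14658 tested genes. Members varied together from mouse to mouse (median pairwise correlation 0.90 with diet means removed). Counts of members by sign or p-value, here and in the other comparisons, are therefore not counts of independent genes. Of the 9 called members 6 belonged to the 60S and 3 to the 40S subunit. Each was lower than the glucose mean in 12 of 13 galactose mice, and in each the diets overlapped.

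The strongest call among 60S proteins was Rpl18. In glucose mice Rpl18 ranged from 196 to 296 CPM with a median of 231, and in galactose mice from 149 to 259 with a median of 199. Its log2 difference was -0.32 ± 0.08 (SE, edgeR adjusted p = 0.0157). Galactose mice filled the lower part of the range, and 1 of them lay among the higher glucose mice.

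Rpl11 carries 5S rRNA into the large subunit together with Rpl5 and, when ribosome assembly stalls, binds Mdm2. In glucose mice Rpl11 ranged from 106 to 167 CPM with a median of 123, and in galactose mice from 72.5 to 148 with a median of 99.4. Its log2 difference was -0.35 ± 0.09 (SE, edgeR adjusted p = 0.0188). Rpl36, a small 60S protein, had the largest called difference. In glucose mice Rpl36 ranged from 43.6 to 77.9 CPM with a median of 54.2, and in galactose mice from 29.6 to 60.3 with a median of 44.2. Its log2 difference was -0.40 ± 0.11 (SE, edgeR adjusted p = 0.0208). For both genes the median galactose mouse lay below the lowest glucose mouse or within 1 CPM of it.

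The other called 60S genes were Rpl29, Rpl31 and Rpl38. Rpl29 had medians of 151 CPM (141 to 204) with glucose and 141 CPM (90.0 to 168) with galactose, a log2 difference of -0.31 ± 0.09 (SE). Rpl31 had medians of 116 CPM (108 to 156) and 103 CPM (71.4 to 138), a log2 difference of -0.33 ± 0.10. Rpl38, which in mouse mutants is known for its role in the translation of Hox mRNAs, had medians of 76.6 CPM (62.7 to 102) and 61.8 CPM (46.5 to 84.8), a log2 difference of -0.31 ± 0.09. Their edgeR adjusted p-values lay between 0.0448 and 0.0490, just inside the threshold of 0.05.

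The called 40S genes were Rps25, Rps20 and Rps16. Rps25, known to be needed for translation from viral internal ribosome entry sites, had medians of 126 CPM (108 to 165) with glucose and 116 CPM (71.9 to 139) with galactose, a log2 difference of -0.34 ± 0.09 (edgeR adjusted p = 0.0332). Rps20 had medians of 138 CPM (112 to 171) and 112 CPM (82.5 to 142), a log2 difference of -0.33 ± 0.10 (edgeR adjusted p = 0.0361). Rps16 had medians of 156 CPM (133 to 205) and 131 CPM (86.4 to 180), a log2 difference of -0.35 ± 0.10 (edgeR adjusted p = 0.0424). In all 3 the lowest galactose mice lay below every glucose mouse.

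Members that are much used as reference or marker genes did not pass the test. Rplp0, the base of the P-stalk that recruits translation factors to the 60S subunit, had a log2 difference of -0.21 ± 0.13 (SE, edgeR adjusted p = 0.381). Rps6, the 40S protein phosphorylated by the S6 kinases, was at -0.23 ± 0.11 (edgeR adjusted p = 0.239). Rpsa, also called the laminin receptor precursor, was at -0.25 ± 0.13 (edgeR adjusted p = 0.266). Rps19, mutated in human Diamond-Blackfan anaemia, was at -0.32 ± 0.14, Rpl3 at -0.23 ± 0.15 and Rpl13a at -0.11 ± 0.17. The difference of Rps19 was as large as that of Rpl18 with a larger SE, while the other 5 were smaller than any of the 9 called. The paralogues were at -0.13 ± 0.05 for Rps27l, -0.17 ± 0.13 for Rpl22l1, -0.13 ± 0.06 for Rpl7l1 and -0.06 ± 0.11 for Rps4l, and 0 of these 4 were called.

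The count of called members moved with single libraries. Leaving out 1 library at a time gave between 2 and 30 called lower, while the median over members stayed between -0.33 and -0.24. Without galactose mouse 2 there were 30, and without glucose mouse 5 or lactose mouse 1 there were 17. Without galactose 3, 5, 7, 8 or 9, or glucose 1 or 12, there were 3, and without glucose 10 there were 2. Without galactose 12 or glucose 11 there were 4, and without lactose 2, 9, 11 or 12 there were 5. Without galactose mouse 4, which held the acinar transcripts, there were 10, and with the stretch of title numbers as a covariate 14. In these 2 fits 2.75% and 3.58% of all tested genes were called lower.

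In title numbers 1 to 18, with 6 mice a diet, the median log2 difference of members was -0.13 and 0 were called, where 0.43% of all tested genes were called lower, and 0 members passed also at an unadjusted p under 0.05. In title numbers 49 to 69, with 7 mice a diet, it was -0.40 and 14 were called lower, where 0.921% of all tested genes were. The test of diet by run called 0 of 14658 genes (0%), and 0 members had an unadjusted p under 0.05. A difference between the runs was thus not detected, and the smaller run alone called 0 members.

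Fau and Rack1, outside the naming rule, also had values below 0 and did not pass the test. The log2 difference was -0.23 ± 0.07 for Fau, which encodes a ubiquitin-like protein fused to a 40S protein, and -0.24 ± 0.12 for Rack1, the scaffold protein on the 40S head. Of 79 mitochondrial ribosomal protein genes, whose products form the separate ribosome of mitochondria, 1 was called lower and 78 had a difference below 0, with a median of -0.15.

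**Figure D2:**
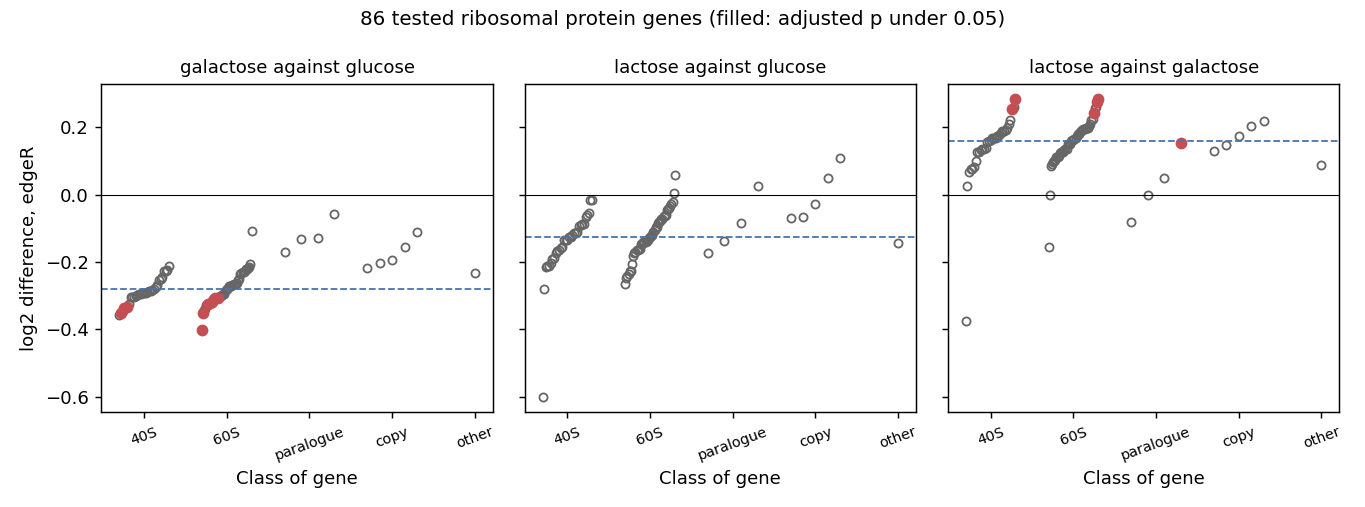
log2 differences from edgeR of the 86 tested genes in the 3 comparisons, by class; filled points passed an adjusted p of 0.05, and the dashed line is the median of the 86. With galactose against glucose 9 are filled and all lie below 0, with lactose against glucose 0 are filled, and with lactose against galactose 6 are filled and lie above 0.

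With lactose, no member passed the test against glucose. The edgeR test called 0 of 86 and DESeq2 also called 0, where edgeR called 8.73% of all tested genes higher and 6.84% lower. At an unadjusted p under 0.05 there were 4 members, beside 4641 of all 14658 tested genes. The median log2 difference was -0.13 against -0.03 over all tested genes, and 81 of 86 were below 0. The 4 members of smallest p were Rpl22, Rps10, Rpl31 and Rps21. Rpl22, which binds small viral RNAs and has the paralogue Rpl22l1, had a log2 difference of -0.24 ± 0.10 (SE, edgeR adjusted p = 0.0950). Rps10, at under 2 CPM in every mouse, had -0.60 ± 0.26 (edgeR adjusted p = 0.101).

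With scaling by library totals, 6 members were called lower (Rpl22, Rpl31, Rpl36, Rpl7l1, Rps10 and Rps21), where 19.8% of all tested genes were called lower.

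The genes named in every comparison did not pass the test with lactose. Rplp0 had a log2 difference of -0.03 with a 95% interval from -0.29 to 0.24. Rps6 had -0.09 with an interval from -0.31 to 0.14, and Rpsa -0.13 with an interval from -0.39 to 0.14. Rpl3 was at -0.24 ± 0.15, Rps19 at -0.19 ± 0.14 and Rpl13a at -0.27 ± 0.18 (SE). Among the paralogues, Rps27l was at 0.03 ± 0.05, Rpl7l1 at -0.08 ± 0.06, Rpl22l1 at -0.17 ± 0.13 and Rps4l at -0.14 ± 0.11. Beside these values, 4 of 11 stem cell markers were called lower with lactose than with glucose. Their sums ranged from 92.7 to 217 CPM with lactose and from 98.4 to 533 with glucose. Of 14 cycling markers 0 were called, with 8 at an unadjusted p under 0.05. Calls were not limited to crypt markers. Of 14 enterocyte markers 5 were called higher and 1 lower, of 10 plasma and B cell markers 4 higher, and of 8 fibroblast markers 1 lower. The median over members was -0.09 in title numbers 1 to 18 and -0.15 in 49 to 69. In these runs 0 and 1 members were called lower, where 0.0614% and 5.7% of all tested genes were. Of the 79 mitochondrial ribosomal protein genes 10 were called lower and 0 higher.

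With lactose, transcripts of 6 members were higher than with galactose. Of 86 members 6 were called higher and 0 lower, where 15.9% of all tested genes were called higher and 15% lower, so the share of members called lay below that of all genes. The median log2 difference was 0.16 against -0.02 over all tested genes, and 81 of 86 were above 0. An unadjusted p under 0.05 was found for 19 members and for 5994 of all 14658 tested genes. This share of members also lay below that of all genes. The 6 were Rpl10, Rpl18, Rpl29, Rps14, Rps27 and Rps27l, and each was higher than the galactose mean in 12 of 13 lactose mice.

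Rpl10, an X-linked 60S protein that joins last, near the peptidyl transferase centre, had the smallest p. In galactose mice Rpl10 ranged from 218 to 358 CPM with a median of 300, and in lactose mice from 225 to 437 with a median of 375. Its log2 difference was 0.29 ± 0.08 (SE, edgeR adjusted p = 0.00824). More than 1 lactose mouse lay above every galactose mouse, while lactose mouse 1 lay near the lowest.

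Rpl18 and Rpl29 were called here as well as against glucose, with the galactose mice shared by both comparisons. With lactose, Rpl18 ranged from 159 to 282 CPM with a median of 236, and its log2 difference from galactose was 0.28 ± 0.08 (edgeR adjusted p = 0.00837). Rpl29 ranged from 99.5 to 184 CPM with a median of 157, and its log2 difference was 0.24 ± 0.09 (edgeR adjusted p = 0.0378). For both genes the lactose and glucose means differed by less than the SD between mice.

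Among 40S genes, Rps14 is known from the human 5q- syndrome, in which 1 copy is lost. Rps14 had medians of 206 CPM (150 to 293) with galactose and 249 CPM (152 to 287) with lactose, a log2 difference of 0.25 ± 0.09 (edgeR adjusted p = 0.0251). Rps27 had medians of 79.6 CPM (52.5 to 93.9) and 93.4 CPM (58.1 to 120), a log2 difference of 0.28 ± 0.10 (edgeR adjusted p = 0.0298). Its paralogue Rps27l, a p53 target gene, had medians of 96.3 CPM (78.7 to 104) and 106 CPM (80.7 to 125), a log2 difference of 0.15 ± 0.05 (edgeR adjusted p = 0.0241). The difference of Rps27l was the smallest of the 6 and its spread between mice the narrowest.

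**Figure D3:**
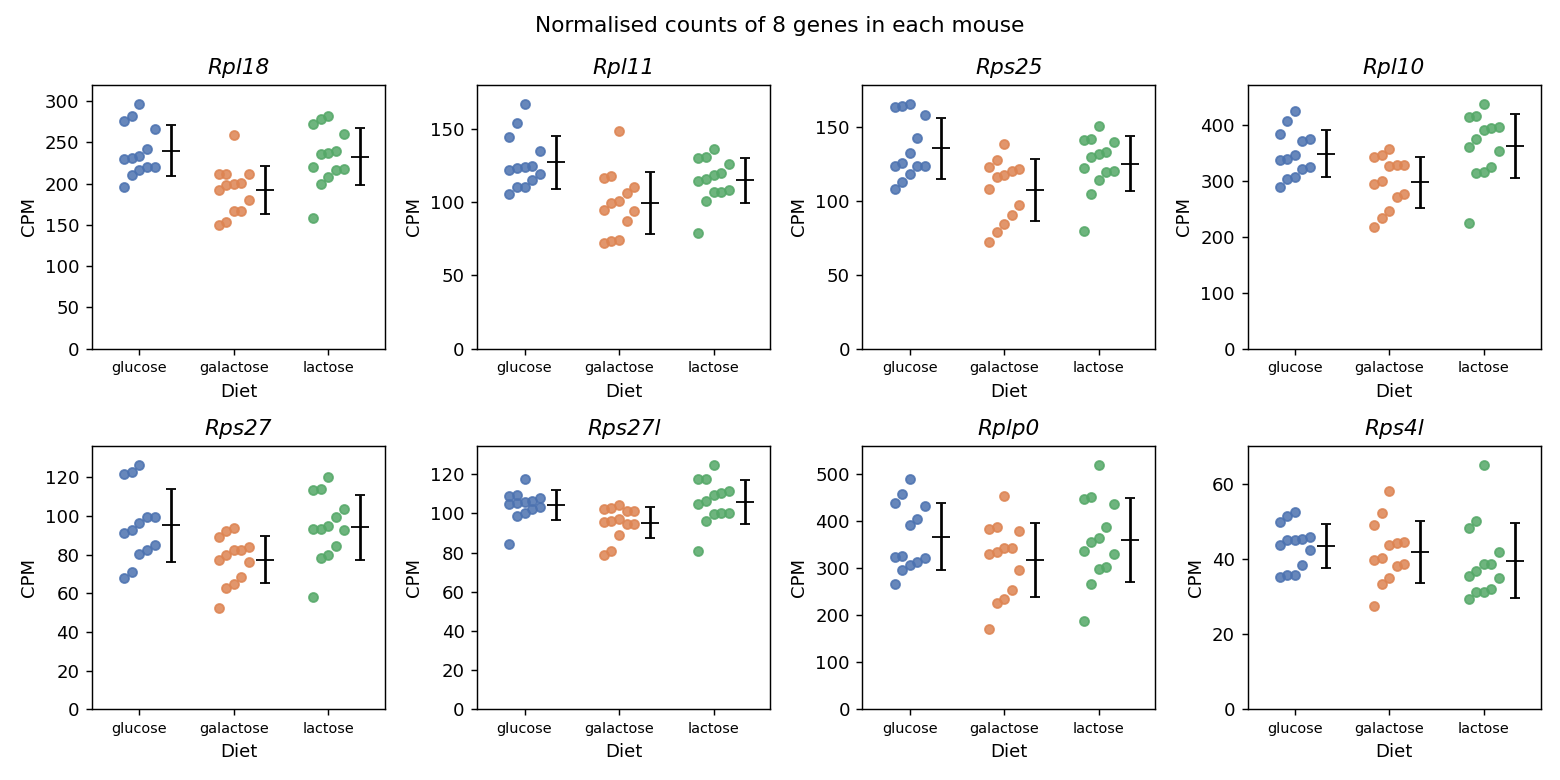
Normalised read counts (CPM) of 8 members in each mouse by diet, with the mean and SD of the 13 mice beside the points. Rpl18, Rpl11 and Rps25 were called lower with galactose than with glucose, Rpl10, Rps27 and Rps27l higher with lactose than with galactose, and Rplp0 and Rps4l were not called.

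The P-stalk proteins showed 0 calls in all 3 comparisons. Between lactose and galactose the log2 difference was 0.18 ± 0.13 for Rplp0, 0.10 ± 0.13 for Rplp1 and 0.10 ± 0.12 for Rplp2. Rpl3, which lies close to the peptidyl transferase centre, had -0.0007 ± 0.15 with a 95% interval from -0.29 to 0.29. Rps6 was at 0.14 ± 0.11, Rpsa at 0.13 ± 0.13, Rps19 at 0.14 ± 0.14 and Rpl13a at -0.16 ± 0.18, and these were not called. Outside the naming rule, Fau was called higher with lactose than with galactose, with a log2 difference of 0.34 ± 0.07 (edgeR adjusted p = 0.00023). Of the 79 mitochondrial ribosomal protein genes 13 were called higher and 2 lower, where 15.9% and 15% of all tested genes were. Their median was 0.05, with 52 above 0 and 27 below.

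Leaving out 1 library at a time gave between 3 and 24 members called higher. The count was 24 without lactose mouse 1, 18 without galactose mouse 2 and 3 without lactose mouse 11. Without galactose mouse 4 it was 6, where 15.2% of all tested genes were called higher. In title numbers 1 to 18 the median was 0.03 with 0 called, where 3.4% of all tested genes were called higher and 3.03% lower. In 49 to 69 it was 0.26 with 13 called higher and Rps4l called lower, where 10.8% and 9.2% of all tested genes were. Scaling by library totals moved the median of all tested genes to -0.16, and there 37 of 86 members lay below 0. With that scaling 0 members were called, where 7.26% of all tested genes were called higher and 33.8% lower. The member median relative to all genes was 0.17 there, against 0.18 with TMM. Against glucose, that scaling moved the median of all genes to -0.13 with lactose, and the member median relative to it was -0.11 against -0.10 with TMM.

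In bulk mucosa, fewer cells of a type and less RNA per cell cannot be told apart. Of 11 stem cell markers, 6 were called lower with lactose than with galactose, and their summed level ranged from 105 to 531 CPM with galactose and from 92.7 to 217 with lactose. Of 14 markers of cycling cells 1 was called lower, with sums from 149 to 423 and from 132 to 295 CPM. Of 10 smooth muscle markers 10 were called lower, with sums from 346 to 1242 and from 221 to 466 CPM, and of 10 plasma and B cell markers 4 were called higher, with sums from 773 to 1763 and from 1188 to 3629 CPM. Of 14 enterocyte markers 5 were called higher and 2 lower. All 4 measured acinar markers were lower, with sums from 16.5 to 17274 and from 21.8 to 40.7 CPM, the highest in galactose mouse 4. Of 8 fibroblast markers 6, of 9 myeloid markers 6 and of 7 endothelial markers 4 were also called lower, and of 5 erythroid markers 5 were called higher. Between galactose and glucose 0 of 14 cycling markers were called, with 12 below 0. Of 11 stem markers 1 was called higher and 0 lower, with 8 above 0. Of 14 enterocyte markers 2 were called lower and 0 higher, with 8 above 0 and a median log2 difference of 0.14. Of 9 Paneth markers 0 were called, with 9 above 0. All 4 measured acinar markers were called higher. The acinar sums ranged from 22.0 to 181 CPM with glucose, within the range with galactose that galactose mouse 4 extends. There 0 of 10 smooth muscle markers were called, with 10 above 0, a median log2 difference of 0.53 and 8 at an unadjusted p under 0.05. Of 10 plasma and B cell markers 0 were called, with 9 below 0, a median of -0.51 and 3 at an unadjusted p under 0.05.

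With a score of cycling and stem markers as a covariate, 70 members were called lower with galactose than with glucose and 76 higher with lactose than with galactose. In the same fits 4.7% of all tested genes were called lower and 15.7% higher, respectively. The member medians were then -0.30 and 0.35. Against glucose, the median with lactose turned to 0.06 with 0 called, where 6.03% of all tested genes were called higher and 4.96% lower. With a score of stem, fibroblast and smooth muscle markers as a covariate instead, 1 and 0 members were called, where 1.05% and 2.37% of all tested genes were, with medians of -0.32 and 0.24. The direction with galactose was the same under both scores, while the number of calls ran from 1 to 70.

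The members rose and fell together from mouse to mouse. With the diet means removed, the median Pearson correlation over 3655 pairs of members across 39 libraries was 0.90, against -0.003 over all pairs of tested genes and 0.55 over pairs of mitochondrial ribosomal protein genes. It was 0.93 within the 40S genes, 0.91 within the 60S genes and 0.92 between 40S and 60S genes. Within the diets it was 0.88 for glucose, 0.93 for galactose and 0.90 for lactose, with 13 libraries each. In title numbers 1 to 18 it was 0.94, and in 49 to 69 it was 0.85. All pairs share the libraries and their scaling, and the genes are not independent replicates.

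Of 86 members 70 had a correlation above 0.9 with the mean of the others. Among the highest were Rps15a at 0.990, Rplp1 at 0.986, Rps26 at 0.985 and Rpsa at 0.983. The lowest were Rps4l at -0.24, Rps19bp1 at 0.28, Rps27l at 0.40, Rpl7l1 at 0.44 and Rps10 at 0.46. Among these, Rps10 rests on 617 counts in all, and Rps19bp1 is no ribosomal protein. The other 3 are paralogues.

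The paralogue Rps4l did not follow the mean of the other members, and its correlation of -0.24 lay within the 5th to 95th percentile of all gene pairs, -0.43 to 0.45. In glucose mice Rps4l ranged from 35.3 to 52.6 CPM with a median of 45.1, in galactose mice from 27.5 to 58.2 with a median of 40.3, and in lactose mice from 29.5 to 65.1 with a median of 37.0. Its log2 difference was -0.06 ± 0.11 with galactose and -0.14 ± 0.11 with lactose against glucose, and neither was called. The count of Rps4l per 100 counts of its parent Rps4x ranged from 9.95 to 46.3 over the 39 mice. The highest ratio was in galactose mouse 3, which also had the lowest share of member counts. Rps4x had a correlation of 0.97 with the mean of the other members, so the ratio rises where the family is low.

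Rps27l and Rpl7l1 kept narrow ranges while their parents varied. The SD of log2 CPM within diets was 0.13 for Rps27l and 0.26 for Rps27, and 0.14 for Rpl7l1 and 0.23 for Rpl7. Rpl22l1, in contrast, followed the family with a correlation of 0.92 and an SD of 0.33. The count of Rpl22l1 per 100 counts of Rpl22 was 52.5 ± 6.54 with glucose, 59.3 ± 6.10 with galactose and 55.2 ± 6.51 with lactose (SD, n = 13). The log2 ratio was 0.18 ± 0.06 (SE) higher with galactose than with glucose, in 11 of 13 mice (two-sided permutation test, p = 0.0106, adjusted p = 0.127). Of 12 tests over 4 pairs of paralogue and parent, 0 passed the threshold after adjustment.

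Among 13459 tested genes outside the members, without pseudogenes, predicted Gm genes and identifiers with no symbol, those most like the mean of the members over the 39 libraries were Eef1b2 at a correlation of 0.97, Rack1 at 0.97, Eif3i at 0.92, Eef1g at 0.91, Pla2g12a at 0.90, Plp2 at 0.90, Csrp2 at 0.89 and Ppia at 0.89. Eef1b2 and Eef1g are subunits of the elongation factor that recharges eEF1A, and Eif3i is a subunit of an initiation factor. Of the genes compared, 4 had a correlation above 0.9.

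The member mean also moved with the crypt markers. Its correlation with the score of 24 translation factor and other genes known for TOP mRNAs was 0.92, and with the score of 6 snoRNA host genes, whose RNAs also start with TOP motifs, 0.91. With cycling markers it was 0.84, with Paneth markers 0.77, with stem markers 0.70 and with enterocyte markers -0.71. Without the 2 libraries farthest from the median score, the value for cycling markers was 0.84 and that for enterocyte markers -0.69. With the mitochondrial share of counts it was 0.08, with the share of reads not uniquely placed 0.37 and with total counts -0.43. With the title number it was 0.30 over all libraries, -0.21 in 1 to 18 and 0.75 in 49 to 69, and the part of this order in the diet differences was not tested. Scores and member levels come from the same libraries, and mice high in member transcripts were high in cycling markers in each diet, with correlations of 0.80, 0.89 and 0.84 for glucose, galactose and lactose. In the same order, those with stem markers were 0.74, 0.86 and 0.42, and those with enterocyte markers -0.80, -0.83 and -0.43.

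**Figure D4:**
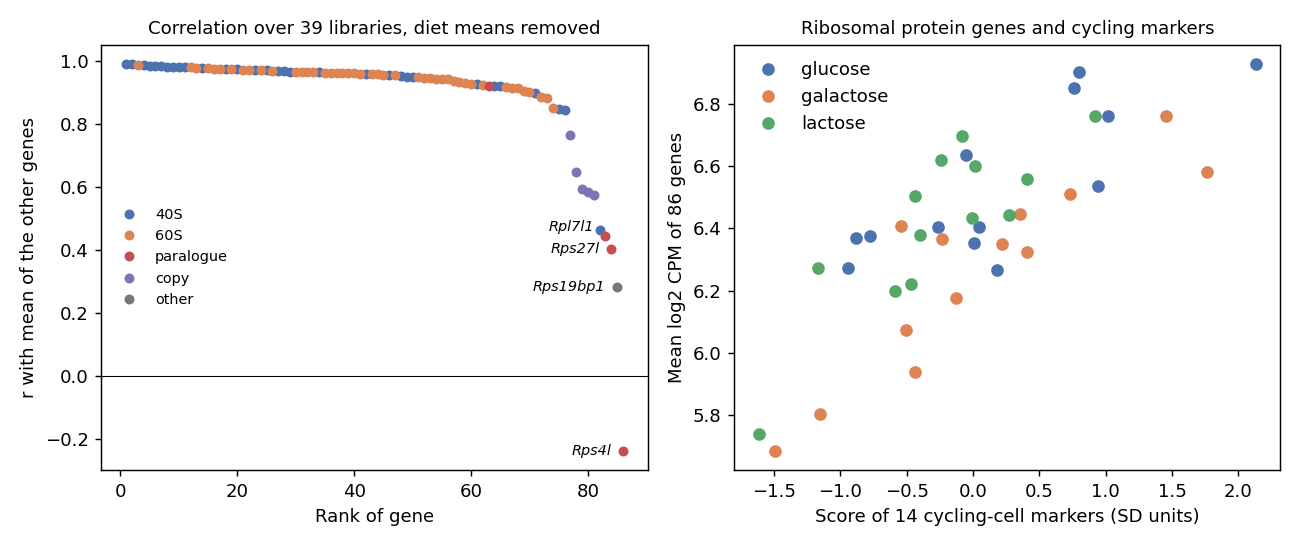
Left, correlation of each of the 86 genes with the mean of the others over 39 libraries after removal of diet means, ranked and coloured by class. Right, mean log2 CPM of the 86 genes against the score of 14 cycling-cell markers (mean of values scaled to SD 1) in each mouse. Left, 70 genes lie above 0.9 and Rps4l lies at -0.24; right, the points rise together with r = 0.84 within diets.

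Among genes that build or regulate ribosomes, calls were few in the comparisons with glucose. Their counts are to be read against the shares of all tested genes, 1.21% higher and 2.87% lower with galactose, and 8.73% higher and 6.84% lower with lactose. Between galactose and glucose, of 45 ribosome assembly factors 0 were called, of 24 tested TOP genes 1 was lower (Btf3, log2 difference -0.21 ± 0.05), of 11 tested RNA polymerase I genes 1 was lower (Polr1d, -0.20 ± 0.06), and of 25 growth control genes 1 was higher (Sesn1, 0.38 ± 0.11). Sesn1 is a p53 target that restrains mTORC1. Of 9 p53 target and pathway genes, Sesn1 was higher and the apoptosis gene Bax was lower at -0.36 ± 0.09. Between lactose and glucose, Sbds (0.38 ± 0.08) and Eif6 (0.25 ± 0.08) were higher among 45 assembly factors, and Eif4a2 (0.18 ± 0.04) among 24 TOP genes. Of 25 growth control genes, Sesn3 (0.35 ± 0.11) was higher and Mycn (-0.87 ± 0.28) lower, and of 9 p53 genes 0 were called. Eif6 holds the new 60S subunit apart from the 40S, and Sbds takes part in its release.

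Between lactose and galactose, where 15.9% of all tested genes were called higher and 15% lower, the share of assembly factors called lay below that of all genes. Of 45 assembly factors 3 were called higher, Sbds (0.51 ± 0.08), Eif6 (0.40 ± 0.08) and Pno1 (0.28 ± 0.10). Of 24 TOP genes 5 were higher, among them Btf3 (0.31 ± 0.05), Eif3h (0.21 ± 0.05) and Eif4a2 (0.19 ± 0.04), and Vim (-0.37 ± 0.10) and Nap1l1 (-0.29 ± 0.11) were lower. Polr1d was higher (0.19 ± 0.06). Of 25 growth control genes 3 were higher and 3 lower. The mTORC1 activator Rheb was higher (0.31 ± 0.07), while Larp1 (-0.33 ± 0.08) and Sesn1 (-0.48 ± 0.11) were lower. The other 3, named after their values were seen, were Castor1 (0.45 ± 0.14) and Eif4ebp2 (0.17 ± 0.07), which were higher and are known to restrain mTORC1 or translation, and Tsc2 (-0.11 ± 0.04), an inhibitor of Rheb, which was lower. Of 9 p53 genes Bax (0.52 ± 0.09) and Mdm2 (0.19 ± 0.07) were higher and Sesn1 was lower.

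Members with and without a pyrimidine run near the annotated start were close in their median values. The 27 tested members with a run of at least 8 had a median log2 difference of -0.30 between galactose and glucose, and the 29 without one had -0.28. Their median correlations with the mean of the other members were 0.95 and 0.96. Rpl18 and Rpl38, shown above with a run, and Rpl11, shown without one, were all called lower with galactose.

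Reads on the nearly identical copies of these genes set the libraries apart by title number. The 289 pseudogene symbols of the family held between 0.00374% and 0.0139% of counts. Per 100 member counts the pseudogenes had 0.622 to 0.724 counts in the 9 samples with title numbers 1 to 9, 0.458 to 0.521 in the 13 samples from 10 to 52 and 0.773 to 0.895 in the 17 samples from 53 to 69. These ranges did not overlap, and each stretch held all 3 diets. By diet the means were 0.659 ± 0.151, 0.700 ± 0.159 and 0.687 ± 0.170 for glucose, galactose and lactose (SD, n = 13). The stretches were chosen after the values were seen, and how the reads of these libraries differ was not tested.

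The copies that passed the filter as members, Rps27rt, Rpl37rt, Rps3a2, Rpl6l and Rps3a3, share sequence with their parents, so their counts are uncertain. Counts of Rpl37rt per 100 of Rpl37 were 4.10 ± 0.788 in the samples from 10 to 52 and 7.06 ± 0.848 in those from 53 to 69. Of the 5 copies 0 were called in any of the 3 comparisons.

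**Figure D5:**
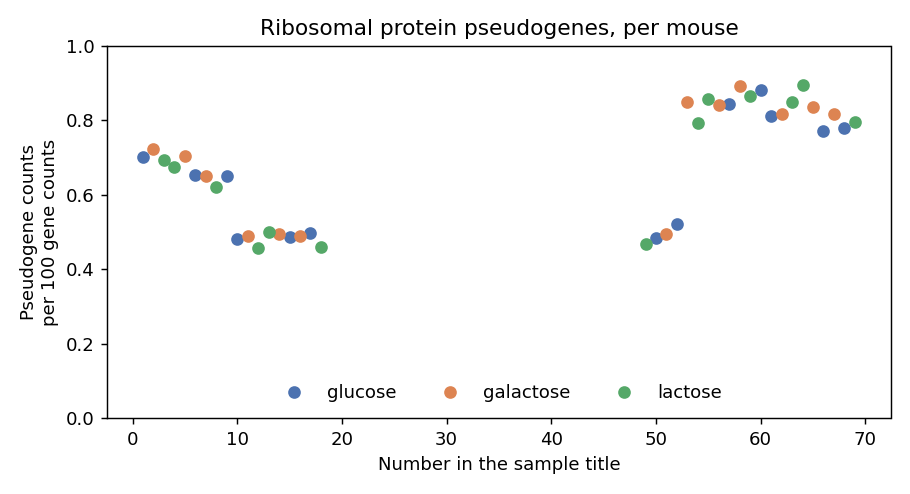
Counts on ribosomal protein pseudogenes per 100 counts on the 93 genes against the number in the sample title, coloured by diet. The 13 samples from 10 to 52 lie between 0.458 and 0.521, and the 17 from 53 to 69 between 0.773 and 0.895, with all 3 diets in each.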

How the data were processed

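The authors deposited raw counts per gene, 1 file per mouse, made with FastQC, STAR and HTSeq on GRCm39, per the submitters' processing notes. Versions, annotation release and strand setting are not given in the sources used here. Counts could therefore not be resolved by strand. The 5 summary lines were kept out of library sizes, and 4.58% to 9.93% of reads were not uniquely placed.

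Symbols came from a reference table that matched 52073 of 56980 identifiers. Genes were filtered with filterByExpr and scaled with TMM in edgeR 4.0.16 (R 4.3.3). Quasi-likelihood F tests, two-sided, used 1 model with a mean per diet over all 39 libraries. P-values were adjusted by Benjamini and Hochberg over all 14658 tested genes, with a threshold of 0.05. The SE is the absolute log2 difference over the square root of F. CPM used TMM factors, and log2 CPM a prior count of 2. Lengths are those of the shortest principal transcript in GENCODE M21. Paralogue ratios were tested with 100000 permutations. DESeq2 1.42.0 was an alternative.

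The members, gene lists and tests were chosen with earlier results of these data known. The title-number stretch, the mitochondrial share and the libraries left out in turn were alternatives chosen after seeing the data. Called members were all named, with Rplp0, Rpsa, Rps6, Rpl3, Rpl13a, Rps19, the paralogues, and the extremes in level and correlation. Some genes that this rule names are not reported here. The edgeR test was checked on simulated counts. Genes were drawn independently there, so the check does not cover genes that vary together as the members do.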

Additional observations from a re-analysis of the deposited data

How the results depend on the processing

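The sign of the member median held in all 3 comparisons under 16 alternatives, except in lactose against glucose. There it turned to 0.059 with cycling and stem markers as a covariate. Some medians kept their sign but lay near 0, beside an SD between mice of 0.28. Lactose against galactose was at 0.011 with library totals and 0.029 in title numbers 1 to 18. Lactose against glucose was at -0.033 with the share of reads not uniquely placed as a covariate. The number of calls did not hold. Percentages in brackets are the shares of all tested genes called in the same direction in the same fit. For galactose against glucose 9 members were called lower (2.87%). There were 0 with library totals (1.95%) or title numbers 1 to 18 (0.43%), 1 with the tissue score as covariate (1.05%) and 3 with no filter (0.909%). With the share of reads not uniquely placed there were 4 (2.6%), and 5 with the mitochondrial share (2.83%) or the 2 compared diets alone (3.02%). There were 14 in title numbers 49 to 69 (0.921%) or with the title-number stretch as covariate (3.58%), and 70 with cycling and stem markers (4.7%). DESeq2 called 13 (3.45%). For lactose against glucose 0 were called lower (6.84%), against 6 with library totals (19.8%). There was 1 in title numbers 49 to 69 (Rps21, 5.7%) or with the 2 diets alone (Rpl22, 6.85%). For lactose against galactose 6 were called higher (15.9%). There were 0 with library totals (7.26%), title numbers 1 to 18 (3.4%) or the tissue score (2.37%), and 3 with no filter (6.67%) or the 2 diets alone (14.5%). There were 10 with the title-number triplet as a block (17.6%) and 13 in title numbers 49 to 69 (10.8%). With the share not uniquely placed there were 20 (15.2%), and 76 with cycling and stem markers (15.7%). In this comparison 0 were called lower (15%), against 1 in title numbers 49 to 69 (9.2%). Leaving out each library in turn gave 2 to 30, 0 and 3 to 24 calls in the 3 comparisons. The cause of these shifts was not tested. The stretch, the mitochondrial share and the libraries left out in turn were chosen after seeing the data. Each triplet of neighbouring title numbers held 1 mouse of each diet, which the labels do not call a pairing. Deviations from the diet means correlated above 0.1 in 20 of 39 pairs of mice within triplets (median 0.11) and in 118 of 468 pairs across them (median -0.02). With the triplet as a block 13 members were called lower with galactose than with glucose (4.15%), among them 8 of the 9, without Rpl38. Rpl11 kept its call with galactose in 14 of 16 alternatives, and Rpl38 in 6. Depth limits Rps10, Rpl13a and the copies, which have few counts.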
